A study of Mus musculus with 3 samples.

Results

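The genes that carry a cell from G2 through mitosis were measured in mouse dendritic cells grown with FLT3L at 3 settings of glutamine. The set was a list of 51 symbols, all of which were among the 32285 genes of the matrices and had UMIs (unique molecular identifiers, counts of captured mRNA molecules) in every library. The cells came from wild-type C57BL/6 mice and were differentiated in culture in 2 mM glutamine (control), in 50 µM glutamine, or at the control level of glutamine plus DON at 1 µM. DON is a glutamine analogue that blocks glutamine-using enzymes. Each setting had 1 library of droplet single-cell 3′ sequencing, and the number of mice behind it was not given in the sources used here. No treatment difference could therefore be tested, and intervals on levels, ratios and shares are 95% intervals that cover counting error only.

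Entry into mitosis is driven by the kinase CDK1 with a B-type cyclin. The chromosomes are condensed, attached to the spindle through their kinetochores and kept under the watch of the spindle checkpoint until the ubiquitin ligase APC/C, activated by CDC20, releases the sister chromatids. Most of these genes are silent in resting cells and are transcribed late in the cell cycle through CCAAT boxes, which bind NF-Y, and the cell cycle homology region (CHR), which binds MuvB-based complexes. In the dendritic cell lineage, progenitors divide, and division slows as cells become plasmacytoid dendritic cells (pDC), which make type I interferon, or conventional cells of type 1 (cDC1) and type 2 (cDC2), which prime CD8 and CD4 T cells.

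The promoters show the shared sequence elements of the set. Windows from 250 bases before to 50 bases after the start site were taken from RefSeq (GRCm38.p6), and 45 of the 51 genes matched by symbol. A gene with several start sites has several windows and is counted once, where any of them holds the letters. CCAAT, on either strand, was found for 75.6% of these genes and 41.1% of the 27025 genes of the table. It was also found for 69.2% of other mitosis genes and 67.7% of S phase genes. At least 2 copies were found for 62.2% of the set, 35.9% of other mitosis genes, 41.9% of S phase genes and 13.3% of all genes. The CHR letters TTTGAA, on either strand, were found for 71.1% of the set, 66.7% of 39 other mitosis genes, 16.1% of 31 S phase genes and 20.2% of all genes. The variant TTTAAA, a palindrome, was found for 24.4% of the set and 14.9% of all genes. Matches of different motifs can share bases, and a match describes letters, not a bound site. Of the 44 TTTGAA matches over all windows of the set, 45.5% began within the 50 bases from the start site on, where 11.2% of the matches in all windows of the table lay, with windows that overlap counted separately. Sequences are shown for a set of well-known members: Aurka, Aurkb, Birc5, Cbx5, Ccnb1, Ccnb2, Cdc20, Cdc25c, Cdk1, Cenpa, Cks1b, Cks2, Hmgb2, Knl1, Lbr, Mki67, Top2a, Tubb4b and Ube2c. The 4 promoters below are the first of these, in alphabetical order, that hold CCAAT and a CHR sequence in 1 window, and they are shown for the repeated CCAAT letters before the start site. A CHR sequence lies in the printed stretch of Ccnb1, Ccnb2 and Cdc20, and those of Aurka lie after the start site. Each is the 250 bases before the start site, on the gene's strand, with the CCAAT and CHR letters in capitals.
Aurka: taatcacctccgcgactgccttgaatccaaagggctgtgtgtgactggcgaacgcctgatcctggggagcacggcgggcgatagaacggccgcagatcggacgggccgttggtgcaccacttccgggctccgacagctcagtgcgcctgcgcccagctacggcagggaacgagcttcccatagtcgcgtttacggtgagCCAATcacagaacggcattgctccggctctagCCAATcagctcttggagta
Ccnb1: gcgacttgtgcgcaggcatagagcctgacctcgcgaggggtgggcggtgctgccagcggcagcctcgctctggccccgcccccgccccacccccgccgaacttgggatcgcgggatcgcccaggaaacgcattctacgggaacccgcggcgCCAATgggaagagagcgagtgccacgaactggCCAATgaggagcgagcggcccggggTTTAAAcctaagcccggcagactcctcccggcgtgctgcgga
Ccnb2: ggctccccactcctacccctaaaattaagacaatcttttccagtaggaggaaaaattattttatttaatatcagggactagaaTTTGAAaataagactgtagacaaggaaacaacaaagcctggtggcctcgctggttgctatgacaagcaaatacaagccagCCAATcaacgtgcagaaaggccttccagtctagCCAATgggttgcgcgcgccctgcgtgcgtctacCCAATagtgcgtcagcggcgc
Cdc20: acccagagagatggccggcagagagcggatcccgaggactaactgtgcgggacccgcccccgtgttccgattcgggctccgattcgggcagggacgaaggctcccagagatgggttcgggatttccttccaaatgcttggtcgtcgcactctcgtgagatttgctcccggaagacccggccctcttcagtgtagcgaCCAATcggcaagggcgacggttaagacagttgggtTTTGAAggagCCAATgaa
All 4 genes lie on the minus strand, at chr2:172370571-172370820 for Aurka (a spindle-pole kinase), chr13:100786487-100786736 for Ccnb1 and chr9:70421555-70421804 for Ccnb2 (the mitotic cyclins B1 and B2), and chr4:118437344-118437593 for Cdc20.

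The CHR letters of further genes are shown to compare what surrounds them. These are the genes of the same well-known members whose TTTGAA nearest to the start site begins less than 50 bases from it and is not in a stretch printed above. Each line gives 30 bases on the gene's strand with the match in capitals, and TTCAAA is TTTGAA read on the other strand.
Aurka: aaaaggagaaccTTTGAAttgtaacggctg
Ccnb2: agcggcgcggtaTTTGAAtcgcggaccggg
Cdk1: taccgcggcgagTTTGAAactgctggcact
Cenpa: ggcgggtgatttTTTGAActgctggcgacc
Cks1b: gcgggcggtgtgTTTGAAagcgaggccaaa
Hmgb2: ggactctccgggTTTGAAtaatcctccaca
Knl1: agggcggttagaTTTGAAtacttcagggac
Lbr: cgccggcgatgaTTCAAAaggtcgagggac
Top2a: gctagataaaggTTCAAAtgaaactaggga
Ube2c: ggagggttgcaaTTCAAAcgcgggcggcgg
The positions in GRCm38.p6 are chr2:172370521-172370550, chr9:70421533-70421562, chr10:69352910-69352939, chr5:30666890-30666919, chr3:89418291-89418320, chr8:57511801-57511830, chr2:119047138-119047167, chr1:181842429-181842458, chr11:99024195-99024224 and chr2:164769888-164769917, in the same order. Aurka, Ccnb2, Cdk1, Cks1b, Lbr and Top2a lie on the minus strand and Cenpa, Hmgb2, Knl1 and Ube2c on the plus strand. The letters run along the gene in 7 of them and against it in Lbr, Top2a and Ube2c.

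After filtering and doublet removal, 9473 control cells, 9169 cells at 50 µM and 8367 cells with DON remained, with median UMIs of 6642, 7610 and 7910. Between 51.3 and 63.4% of simulated doublets lay above the doublet threshold, so some doublets remain. Pairs of libraries shared 20 to 31 cell barcodes, of which 14 to 29 were among the kept cells. Cells were gated on marker lists that hold none of the 51 genes: a cell needed at least 3 UMIs from at least 2 genes of a list, and, where several lists reached that, a sum at least 3 times the next. This gave 2523, 2678 and 2411 pDC-marked cells in control, 50 µM and DON, 1068, 134 and 393 cDC1-marked cells, 2726, 2249 and 2514 cDC2-marked cells, and 115, 328 and 102 progenitor-marked cells. Between 20.6 and 31.8% of cells were marked by several lists (mixed). The genes named here are themselves in the gate lists, so their presence follows from the gate and does not test the names. Siglech was at 1452, 1053 and 1266 CPM in pDC-marked cells. CPM is a gene's UMIs as a rate of all UMIs of the class, on which 3606 CPM is 0.361% of the UMIs. Xcr1 was at 174, 119 and 57.9 CPM in cDC1-marked cells and Cd209a at 101, 81.7 and 64.3 CPM in cDC2-marked cells. Mpo was at 804, 747 and 672 CPM in progenitor-marked cells. Some other list genes were less particular. Sirpa, of the cDC2 list, was at 75.2, 116 and 65.4 CPM in cDC2-marked cells but 122, 56.3 and 85.6 CPM in pDC-marked cells. Kit, of the progenitor list, was at 38.8, 38.3 and 28.2 CPM in progenitors and 35.3, 25.8 and 45.7 CPM in cDC1-marked cells. The 192, 162 and 127 unmarked cells were not free of lineage genes. They held S100a4, a gene of the cDC2 list, at 1246, 568 and 1166 CPM, and their make-up depends on the gate, as the lineage comparison shows.

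The summed level of the 51 genes put the lineages in a different order in each library. In control, pDC-marked cells were lowest at 3606 CPM (3576 to 3637), followed by unmarked cells at 4200 CPM, cDC1 at 4861 CPM, cDC2 at 5319 CPM and progenitors at 7678 CPM (7554 to 7803). At 50 µM glutamine, pDC-marked cells were highest at 9614 CPM (9572 to 9656), above progenitors at 8190 CPM, unmarked cells at 7098 CPM, cDC2 at 6433 CPM and cDC1 at 4423 CPM (4307 to 4542). With DON the order was unmarked cells at 5168 CPM, cDC2 at 6353 CPM, pDC at 6439 CPM, cDC1 at 6630 CPM and progenitors at 9672 CPM. The counting intervals of neighbours in these orders did not overlap, but with 1 culture each the spread between cultures is unknown. Hmgb2, a chromatin protein, and Top2a, the topoisomerase that untangles sister chromatids, were the 2 highest genes in all 15 combinations of lineage and library, and the 5 highest genes held 40.5 to 46.1% of the summed UMIs. Mature dendritic cells, marked by Ccr7 and Fscn1 among others and known to have left the cell cycle, had 665, 675 and 888 CPM. Neutrophil-marked cells had 4324, 3249 and 6087 CPM.

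The share of cells rich in these transcripts was highest in progenitors in each library, and pDC-marked cells were lowest in control and with DON. After each cell was thinned to 2000 UMIs, to remove the effect of depth, at least 10 UMIs of the set were found in 10.6% of pDC-marked cells in control (267 of 2514, exact binomial interval 9.44 to 11.9%), in 38.8% at 50 µM (1037 of 2670, 37 to 40.7%) and in 21.2% with DON (511 of 2408, 19.6 to 22.9%). In cDC1-marked cells the share was 23.1%, 24.8% and 33.6%. The interval at 50 µM was wide there, 17.7 to 33%, because the class had 133 cells of that depth. In cDC2-marked cells it was 20.4%, 27.5% and 25.1%, and in progenitor-marked cells 55.3%, 60.1% and 71.6%. Unmarked cells had 20.9%, 43.9% and 32.7%, and mixed cells 32.8%, 50.4% and 42.5%. In mature dendritic cells the share was 0.261% in control and 0.599% with DON, and at 50 µM none of 176 cells had 10, and 3 counts of that total set an upper limit of 1.7%. Without thinning, the shares in pDC-marked cells were 19.2%, 55.5% and 34.9%. Between 1.63 and 5.26% of cDC1-, cDC2- and pDC-marked cells, and 14.9 to 17.7% of progenitors, had 8 to 11 UMIs, close to the limit. In progenitors, 25.4%, 32% and 38.2% of cells still reached 20 UMIs.

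**Figure D1:**
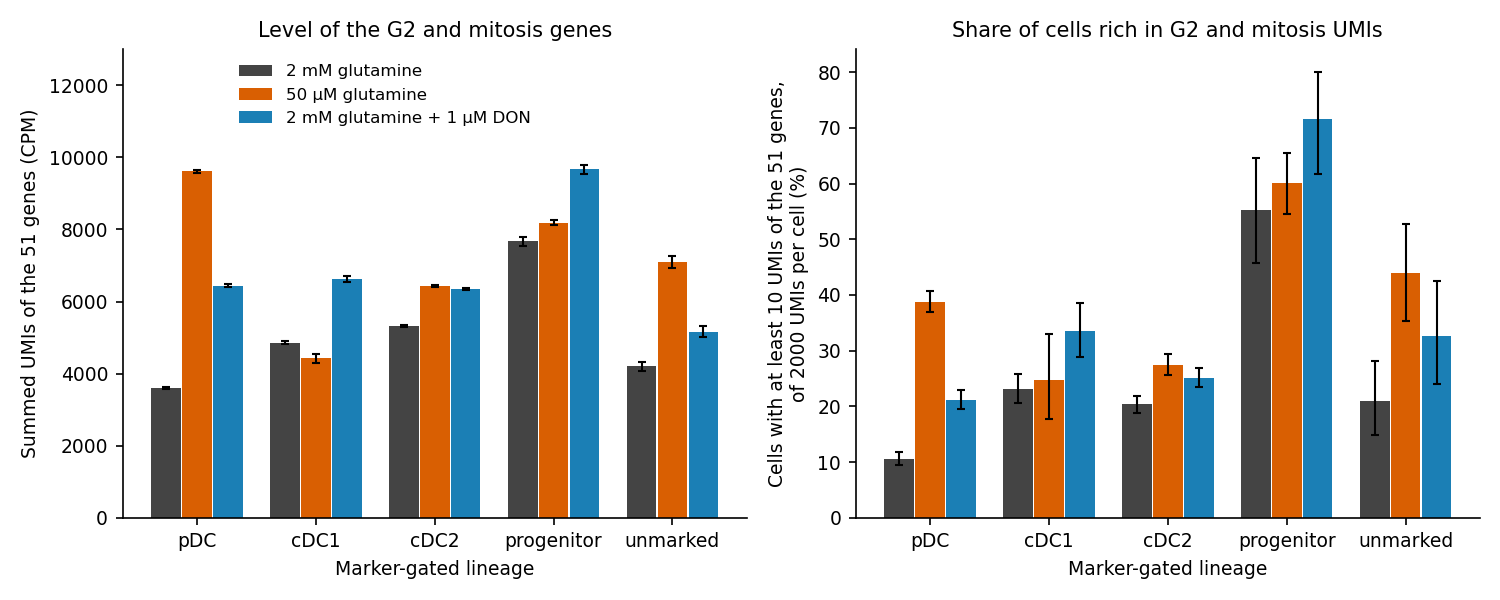
Left, summed UMIs of the 51 genes in CPM. Right, share of cells, in percent, with at least 10 UMIs of the set after thinning to 2000 UMIs. Bars are grouped by marker-gated lineage and coloured by library, and error bars are 95% counting intervals. The pDC bars run from the lowest of their panel in control (3606 CPM, 10.6%) to 9614 CPM and 38.8% at 50 µM glutamine, whereas the cDC1 level at 50 µM, 4423 CPM, lies under its control.

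The lineages were compared within libraries by an edgeR quasi-likelihood fit of the 15 sums with library as a term, over 11348 genes. The 3 libraries serve as the replicates of this comparison, although they were cultures under different treatments. With library as a term, the p-values rest on how much the lineage differences varied between these cultures. That spread includes any difference in the treatments' effect between lineages. Few of the 51 genes differed between differentiated lineages. From pDC to cDC1, 1 was higher and 3 were lower at an adjusted p under 0.05, beside 23.1% higher and 27.9% lower among all genes. From pDC to cDC2, 1 was higher and 2 were lower, beside 20.9% and 23.8%. Between cDC1 and cDC2, 0 were higher and 1 was lower, beside 13.3% and 15.6%, and by the unadjusted p 2 of the 51 lay under 0.05. By DESeq2 there were likewise 0 higher and 1 lower. The median log2 difference of the set was 0.00, -0.01 and -0.00 in these contrasts, against -0.06, -0.04 and -0.01 over all genes.

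These counts rest on the 50 µM library. Without it, 39 of the 51 genes were higher in cDC1 than in pDC, with a median log2 difference of 0.43, and 33 were higher in cDC2 than in pDC, with a median of 0.35. Without the control library, 0 were higher and 4 lower in both contrasts. Without the DON library, 0 were higher and 1 lower in cDC1 and 1 was higher and 0 lower in cDC2. The shares and medians of all genes in these fits are not given here. The counts therefore show only that the calls depend on the library left out.

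Lbr, the lamin B receptor of the inner nuclear membrane, differed most steadily (ENSMUSG00000004880). Its level in pDC-marked cells was 136 CPM in control, 205 CPM at 50 µM and 183 CPM with DON, in cDC1-marked cells 79.6, 89.6 and 102 CPM, and in cDC2-marked cells 126, 136 and 141 CPM. All cDC1 values lay under all pDC and cDC2 values, while the pDC and cDC2 values overlapped. The log2 difference from pDC to cDC1 was -0.71 ± 0.09 (SE, adjusted p = 7.29e-06), and it kept its call in all 10 alternatives, with adjusted p up to 0.00419. Between cDC1 and cDC2 it was -0.42 ± 0.09 (adjusted p = 0.0024), lost without the control library (adjusted p = 0.0679) or without the DON library (0.0707). From pDC to cDC2 it was -0.29 ± 0.08 (adjusted p = 0.00897), and this was lost without the 50 µM library (0.194) or the DON library (0.265).

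The other genes called between pDC and conventional cells were Nek2, Ect2, Ndc80 and Psrc1. Nek2, a centrosome kinase, was at 15.6, 42.2 and 27.8 CPM in pDC-marked cells, at 11.9, 8.87 and 15.3 CPM in cDC1 and at 13.1, 15.4 and 16 CPM in cDC2. It was lower than pDC in each library, by -0.76 ± 0.25 in cDC1 (adjusted p = 0.018) and -0.80 ± 0.20 in cDC2 (adjusted p = 0.00399). Ect2, the exchange factor that starts the cleavage furrow, was at 19, 52.1 and 33.8 CPM in pDC and 14.4, 16.9 and 14.9 CPM in cDC1, a difference of -0.79 ± 0.21 (adjusted p = 0.00456). For both genes the pDC values lay above all cDC1 values, narrowly in control and most widely at 50 µM, and for Nek2 the cDC2 values reached into the pDC range. Ndc80, a kinetochore protein that grips microtubules, was called higher in cDC1 (0.53 ± 0.21, adjusted p = 0.0466), with 17.3, 59 and 32.7 CPM in pDC and 33.4, 37.9 and 47.2 CPM in cDC1. That call was lost in 5 of 10 alternatives, and at 50 µM the order was the other way. Psrc1, a microtubule-binding protein, was called higher in cDC2 (0.66 ± 0.20, adjusted p = 0.0137) at levels of 2.15 to 11.2 CPM over both lineages. Without the DON library, Nek2 and Ect2 also lost their calls, with adjusted p of 0.144 and 0.131 in cDC1, and Nek2 had 0.0866 in cDC2. Nek2 in cDC1 was also lost without the 50 µM library (0.0598), and Psrc1 in cDC2 without the control library (0.0799).

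Progenitor-marked cells had more of the set than pDC-marked cells in control and with DON. At 50 µM the sum was lower in them, at 8190 CPM against 9614 CPM in pDC-marked cells. In the fit over the 3 libraries, 26 of the 51 genes were higher in progenitors and 1 was lower. Among all genes, 29.3% were higher and 31.2% lower. The median log2 difference was 0.50 against -0.04 over all genes. The count of higher genes was 43 without the 50 µM library and 6 without either of the other libraries. The shares of all genes in those fits are not given here. Cdk1, the kinase at the centre of the set, was at 37.1, 125 and 77.2 CPM in pDC-marked cells and at 147, 160 and 215 CPM in progenitors, so that all progenitor values lay above all pDC values. Its difference was 1.25 ± 0.25 (adjusted p = 0.000519). Cks2, a small subunit that binds CDK1, was at 112, 273 and 179 CPM and 350, 323 and 391 CPM (1.04 ± 0.21, adjusted p = 0.000465), again without overlap. Psrc1 differed by 0.96 ± 0.25 (adjusted p = 0.0041). The 5 genes that kept their call in all 10 alternatives were Cdk1, Cks2, Tubb4b (a tubulin, 0.95), Rangap1 (the GTPase activator of RAN, 0.69) and Cbx5 (heterochromatin protein 1 alpha, 0.71). The lower gene was Nek2 (-0.64 ± 0.26, adjusted p = 0.0397), and its call was lost in 5 alternatives. Reads of Hmgb2, Tubb4b, Cks1b, Cks2 and Cbx5 may be shared with close paralogues or pseudogenes, and how the counting treated them is not given in the sources used here.

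Unmarked cells could not be placed. In the fit, 0 of the 51 genes were higher and 4 were lower than in pDC-marked cells, beside 12.4% and 12.1% of all genes, and 6 lay under an unadjusted p of 0.05. The lower genes were Ube2c (-1.01 ± 0.30, adjusted p = 0.0216), the ubiquitin-conjugating enzyme of the APC/C, Cenpf (-0.98 ± 0.25, 0.00823), an outer kinetochore protein, G2e3 (-0.81 ± 0.23, 0.0176) and Lbr (-0.33 ± 0.10, 0.023). With gating after thinning each cell to 3000 UMIs, the unmarked class grew to 1395, 1683 and 1536 cells and the direction turned, with 34 genes higher and 0 lower. The share of all genes called under that gate is not given here, and the shares above do not carry over to this larger class. Ube2c, Cenpf and G2e3 then differed by 0.31, 0.31 and 0.22. Without the DON library, 0 genes were called in either direction.

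At 50 µM glutamine the set was higher in pDC-marked cells than in control across every role. The sum was 2.67-fold higher (log2 1.41, 1.40 to 1.43). Of the 51 genes, 50 were at least 1.5 times higher and 0 lower, beside 10.2% higher among the 9403 genes of at least 5 CPM and 4.32% lower, on log2 of CPM plus 5, which understates the change of low genes. The gene under the limit was Lbr. The median log2 ratio was 1.35, and 0.12 over all genes. With DON the sum was 1.79-fold higher (log2 0.84, 0.82 to 0.85), 43 genes were at least 1.5 times higher and 0 lower, beside 1.93% and 0.731% of all genes, and the median was 0.79 against 0.03. Both comparisons share the control library. Other scaling moved the ratios by 0.10 or less in all lineages.

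Each functional group took part in pDC-marked cells. The CDK1 group held CDK1, its cyclins and their regulators, and Nek2 and G2e3 were counted with them. It went from 389 CPM in control to 985 CPM at 50 µM and 669 CPM with DON. All 8 genes were above the 1.5-fold limit at 50 µM and 6 with DON. Ccnb1 was at 28.6, 85.9 and 57.4 CPM and Ccnb2 at 36.8, 83.9 and 66 CPM. Cks1b was at 127, 302 and 213 CPM, and Cdc25c, the phosphatase that switches CDK1 on, at 8.01, 21.8 and 14.1 CPM. All these genes were lowest in control and highest at 50 µM.

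The APC/C and checkpoint genes summed to 243, 626 and 459 CPM, with all 5 past the limit under both treatments. Cdc20 was at 33.4, 71.1 and 56 CPM and Ube2c at 149, 370 and 279 CPM. The 7 kinetochore and centromere genes summed to 380, 1060 and 729 CPM, again all past the limit. Cenpa, the histone H3 variant of centromeres, was at 105, 248 and 188 CPM. Knl1, the scaffold that recruits checkpoint proteins to kinetochores, was at 46.8, 157 and 102 CPM, and its log2 ratio with DON, 1.05, was among the 3 highest there. In the chromosomal passenger complex, which corrects faulty attachments, Aurkb was at 26.1, 82.1 and 52.3 CPM and Birc5 at 117, 288 and 212 CPM.

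The 15 spindle genes summed to 523, 1480 and 947 CPM. Nusap1, which bundles spindle microtubules, was at 53.5, 206 and 117 CPM, with log2 ratios of 1.85 and 1.06. Aurka was at 16.3, 49.9 and 33 CPM, and Tubb4b at 142, 290 and 221 CPM. The cytokinesis genes summed to 168, 473 and 297 CPM. Chromatin and nuclear envelope genes held both extremes. Top2a, at 213, 798 and 456 CPM, had log2 ratios of 1.88 and 1.08, and Mki67, which coats mitotic chromosomes and marks cycling cells, was at 130, 492 and 266 CPM with 1.88 at 50 µM. Hmgb2 was at 750, 1968 and 1348 CPM and Cbx5 at 78.3, 181 and 121 CPM. Among genes of at least 20 CPM the lowest ratios belonged to Lbr (0.58 and 0.41), Anp32e, a histone H2A.Z chaperone (189, 296 and 258 CPM, 0.63 and 0.44), and G2e3 (23.5, 50.5 and 33.7 CPM, 0.96 and 0.44).

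**Figure D2:**
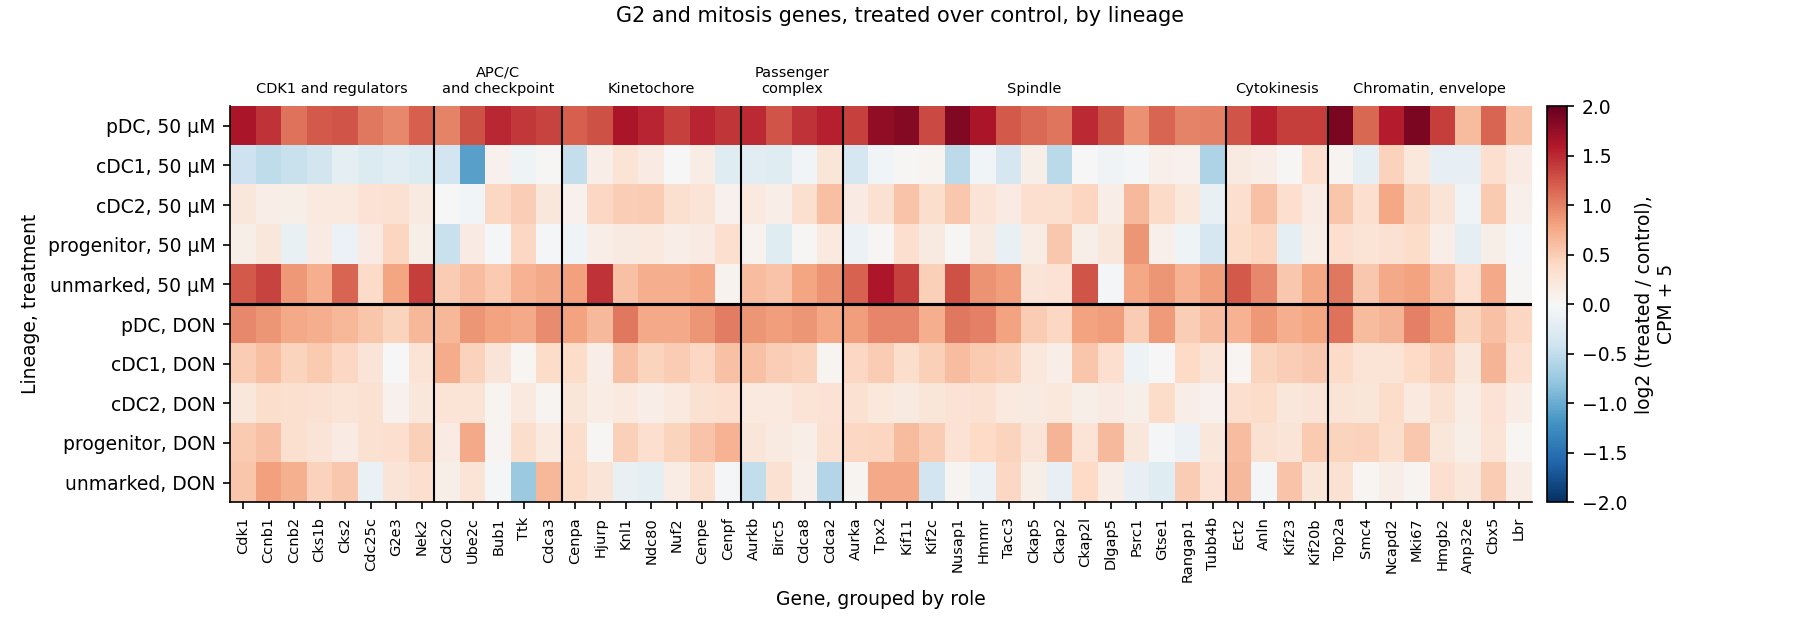
Colours give the log2 ratio of treated over control CPM plus 5 for each of the 51 genes (columns, grouped by role) in each lineage and treatment (rows, 50 µM glutamine above the line and DON under it). Nek2 and G2e3 were placed with CDK1, and Cdca2 with the passenger complex. The pDC row at 50 µM is red throughout, from 0.58 in Lbr to 1.88 in Top2a, and the cDC1 row at 50 µM reaches -1.08 in Ube2c.

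The make-up of the pDC-marked class moved with this result at 50 µM, and less so with DON. Ccr9, a chemokine receptor of mature pDC, was at 1005 CPM in control, 411 CPM at 50 µM and 1057 CPM with DON. After thinning, 65.3%, 31% and 57.7% of pDC-marked cells had a Ccr9 UMI. Among those, the share with at least 10 UMIs of the set was 4.45% in control (3.5 to 5.56%), 16.7% at 50 µM (14.2 to 19.4%) and 10.5% with DON (8.94 to 12.2%). Among cells without a Ccr9 UMI it was 22.2%, 48.8% and 35.9%. The treated shares were higher than control within both subsets, and cells without Ccr9 had the higher share in every library. The progenitor list was read from all UMIs of a cell, without thinning. A UMI of it was found in 10.3%, 25.2% and 14.2% of pDC-marked cells. In the cells without one the share was 9.27%, 32.5% and 19.8%. This subset also differed in depth, with median UMIs of 5230, 5592 and 6264, against 6250, 10420 and 7781 in cells with a progenitor UMI. The log2 ratio of the summed genes was 1.56 at 50 µM and 1.12 with DON in cells with a Ccr9 UMI, and 1.35 and 0.90 in cells without progenitor UMIs. These subsets were chosen after the data were seen. Summed over its 11 genes, the progenitor list was at 24.4, 73.8 and 30.4 CPM in pDC-marked cells, with 1, 0 and 0 genes at 0, and at 2693 to 3385 CPM in progenitor-marked cells.

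**Figure D3:**
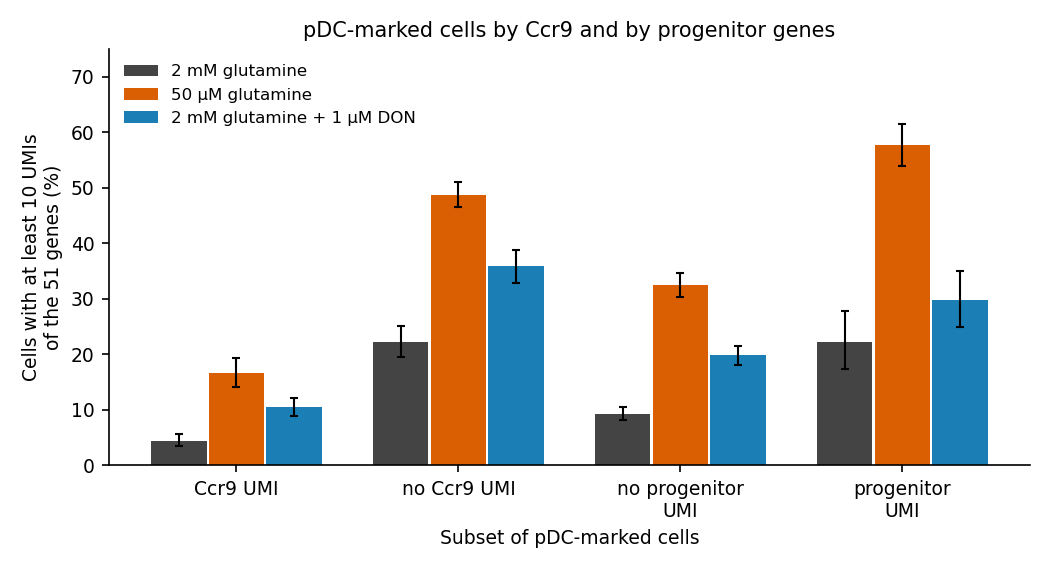
Share of pDC-marked cells, in percent, with at least 10 UMIs of the 51 genes after thinning to 2000 UMIs, in subsets with or without a Ccr9 UMI and with or without a UMI of the progenitor list. Ccr9 was read after thinning and the progenitor list from all UMIs of a cell. Bars are coloured by library and error bars are exact binomial 95% intervals. Control is lowest and 50 µM glutamine highest in each subset, from 4.45% to 16.7% in cells with Ccr9.

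In cDC1-marked cells the sum of the set went different ways under the treatments. At 50 µM the sum was 0.91-fold that of control (log2 -0.14, -0.18 to -0.10), 0 of 50 measured genes were at least 1.5 times higher and 2 were lower, beside 5.34% and 2.15% of all genes. The genes were divided, with 22 above control and 28 under it, and a median log2 ratio of -0.06 against 0.07 over all genes. Ube2c (ENSMUSG00000001403) was at 175 CPM in control, 79.9 CPM at 50 µM and 243 CPM with DON, and its log2 ratio at 50 µM was -1.08 (counting interval of the plain ratio -1.43 to -0.84). Tubb4b was at 191, 123 and 230 CPM (-0.62), and Nusap1 at 91.6, 62.1 and 143 CPM (-0.53). All 8 genes of the CDK1 group were under control, with Cdk1 at 71.3, 52.4 and 103 CPM, Ccnb1 at 36.6, 24.2 and 57.9 CPM and Ccnb2 at 40.4, 28.2 and 57.2 CPM. The highest genes were Ncapd2, a condensin subunit (29.7 to 42.8 CPM, 0.46), Kif20b, a cytokinesis kinesin (52.4 to 67.8 CPM, 0.34), and Cbx5 (64.7 to 83.1 CPM, 0.34). The make-up of the class differed too. The cDC2 list of 12 genes summed to 189, 362 and 264 CPM in cDC1-marked cells, with 1, 3 and 1 of its genes at 0, against 2881 to 3108 CPM in cDC2-marked cells. In cDC1-marked cells Cd209a was at 6.2, 46.8 and 6.65 CPM and S100a4 at 94.5, 192 and 183 CPM, and their part in the result was not tested. Only 134 cells stood behind the 50 µM values, and the lower count was 9 or 11 under the other gates. With DON the sum was 1.36-fold higher (log2 0.45, 0.43 to 0.47), with 6 of 49 genes at least 1.5 times higher and 0 lower, beside 0.869% and 1.31% of all genes. The highest were Cdc20 (34.1 to 60.5 CPM, 0.74), Cbx5 (0.68) and Nusap1 (0.62). The count was 2 with scaling by the median of ratios and 13 with gating after thinning.

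cDC2-marked cells showed small differences of the same sign under both treatments. The sum was 1.21-fold higher at 50 µM (log2 0.27) and 1.19-fold higher with DON (0.26), with median ratios of 0.30 and 0.22 against 0.13 and 0.06 over all genes. At 50 µM, 3 genes were at least 1.5 times higher and 0 lower, beside 2.7% and 1.26% of all genes: Ncapd2 (31.1 to 56.9 CPM, 0.78), Cdca2, a chromatin-bound phosphatase anchor (19.4 to 32 CPM, 0.60), and Psrc1 (5.37 to 11.2 CPM). The lowest were Tubb4b (-0.15), Anp32e (-0.07) and Ube2c (225 to 215 CPM, -0.06). With DON, 0 genes passed the limit in either direction, beside 0.0555% and 0.344% of all genes. Top2a was at 339, 499 and 410 CPM, Mki67 at 241, 329 and 278 CPM, Cdk1 at 70.1, 82.6 and 82.5 CPM and Hmgb2 at 1201, 1425 and 1488 CPM in control, 50 µM and DON.

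Progenitor-marked cells started from the highest control level. At 50 µM the sum was 1.07-fold that of control (log2 0.09), a sign that turned to -0.05 when the gate asked for 6 UMIs. At least 1.5 times higher was 1 gene, Psrc1 (5.76 to 14.8 CPM), and 0 were lower, beside 4.5% and 1.98% of all genes. Cdc20, at 94.8, 68.4 and 107 CPM, and Tubb4b, at 407, 322 and 476 CPM, were under control at 50 µM (-0.44 and -0.33) and above it with DON. With DON the sum was 1.26-fold higher (log2 0.33), with 6 genes higher and 0 lower, beside 2.53% and 2.17% of all genes, and 0 higher when the gate asked for 6 UMIs. Ube2c was at 220, 248 and 374 CPM (0.75 with DON) and Cenpf at 132, 167 and 217 CPM (0.70). Only 102 to 328 cells stood behind these values.

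Unmarked cells had 38 genes at least 1.5 times higher and 0 lower at 50 µM, beside 14.8% and 8.44% of all genes, and 6 higher and 2 lower of 50 with DON, beside 6.68% and 7.34%. The sums were 1.69-fold and 1.23-fold those of control. The highest at 50 µM were Tpx2, which activates Aurora A (45.2 to 150 CPM, 1.62), Hjurp, the CENP-A chaperone (42.4 to 124 CPM, 1.44), and Nek2 (8.3 to 29.5 CPM, 1.38). With gating after thinning, 4 genes were higher at 50 µM and 0 with DON. The pDC list summed to 163, 580 and 157 CPM in these cells, so pDC genes moved with the 50 µM result, and their part in it was not tested. Mixed cells had sums of 7735, 9450 and 9275 CPM, above cDC1, cDC2 and pDC in each library except pDC at 50 µM.

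The set was also read in cells split by 49 other mitosis genes, none of them in the set. Those genes differed between the libraries together with the set, so the split describes cells and does not separate a level per cell from a number of cells. After thinning, cells with at least 2 UMIs of that list made up 16.5%, 45% and 25.3% of pDC-marked cells in control, 50 µM and DON, 27%, 35.3% and 38.9% of cDC1, 24.2%, 33.6% and 30.3% of cDC2 and 61.4%, 67.7% and 78.4% of progenitors. In pDC-marked cells with those UMIs the set was at 12829, 15102 and 15810 CPM, and in those with 0 of them at 903, 1325 and 1055 CPM. The fold between these cells was 14.2, 11.4 and 15. It was 9.03 to 13.1 in cDC1 and cDC2 and 2.58 to 3.86 in progenitors, whose cells with 0 UMIs had 2773 to 3650 CPM. Median UMIs per cell were 1.39- to 1.88-fold higher in the marked cells of these 4 lineages, and the cells with UMIs also had more S phase transcripts, 3799 against 757 CPM in control pDC-marked cells.

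Among pDC-marked cells with other mitosis UMIs, the log2 ratio of the sum was 0.24 at 50 µM (0.22 to 0.25) and 0.30 with DON (0.29 to 0.32), beside 1.41 and 0.84 in the whole class, and 1 of 51 genes was at least 1.5 times higher under each treatment, and 0 lower, beside 3.52% higher and 3.9% lower of all genes in these cells at 50 µM and 0.361% and 1.27% with DON. That gene was Gtse1, at 10.9, 19.2 and 23.4 CPM. Cdc20 was at 141, 116 and 151 CPM, and Kif11, the motor that pushes spindle poles apart, at 177 and 262 CPM in control and 50 µM. In cDC1-marked cells with other mitosis UMIs, of which there were 47 at 50 µM, the sum was at 11751 CPM in control, 8904 CPM at 50 µM and 12272 CPM with DON. The log2 ratio at 50 µM was -0.40 (-0.44 to -0.36), and 11 of 51 genes were at least 1.5 times lower and 0 higher, beside 7.35% and 12.1% of all genes. The 11 were Ube2c (429 to 176 CPM), Tubb4b, Ckap2, Ccnb1 (99 to 52.3 CPM), Nusap1, Cenpa (328 to 189 CPM), Cdk1 (182 to 108 CPM), Aurka, Cdc20 (89.2 to 56.1 CPM), Ccnb2 and Birc5 (434 to 288 CPM). With DON 0 of 51 passed in either direction, beside 1.8% higher and 2.24% lower of all genes, at a log2 ratio of 0.06. In cDC2 these ratios were -0.09 and 0.02, with 1 gene higher and 0 lower at 50 µM, beside 3.33% and 1.46%, and 0 in either direction with DON, beside 0.111% and 0.412%. In progenitors 1 gene was higher and 0 lower at 50 µM, beside 6.95% and 2.78%, and 2 and 0 with DON, beside 4.51% and 2.96%. In unmarked cells, with 33 to 60 such cells a library, 16 were higher and 1 lower at 50 µM, beside 20.1% and 15.8%, and 10 and 4 with DON, beside 16.6% and 17.8%.

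Cells with 0 UMIs of the other mitosis genes differed between treatments as well. In pDC-marked cells with 0, the log2 ratio of the sum was 0.55 at 50 µM (0.51 to 0.60) and 0.23 with DON (0.18 to 0.27). There 12 of 30 genes of at least 5 CPM were at least 1.5 times higher and 0 lower at 50 µM, beside 5.65% and 2.2% of all genes, and 1 of 24 and 0 with DON, beside 0.346% and 0.58%. In progenitor-marked cells with 0, of which there were 28, 64 and 13, the sum was lower under both treatments, at -0.38 (-0.48 to -0.28) and -0.40 (-0.54 to -0.25). There 2 of 50 genes were higher and 25 lower at 50 µM, beside 18% and 12.6% of all genes, and 1 of 48 higher and 27 lower with DON, beside 19.6% and 22.2%. In cDC1 the ratios were 0.05 and 0.29, with 3 of 28 genes higher and 2 lower at 50 µM, beside 11.1% and 7.11%, and 5 and 0 with DON, beside 3.18% and 2.07%. In cDC2 they were 0.17 and 0.21, with 1 higher and 1 lower at 50 µM, beside 3.32% and 1.47%, and 0 of 27 in either direction with DON, beside 0.135% and 0.282%. In unmarked cells they were 0.09 and 0.18, with 11 higher and 7 lower of 39 at 50 µM, beside 22.9% and 14%, and 10 and 7 of 38 with DON, beside 17.1% and 13.9%.

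The 51 genes varied widely in how strictly they went with the other mitosis genes. Over all lineages, Kif11 was 87.2-, 65.6- and 63.9-fold higher in cells with other mitosis UMIs than in cells with 0, in control, 50 µM and DON. Hmmr, a spindle-assembly protein (126-, 59.2- and 89.8-fold), and Nusap1 (119-, 59.4- and 120-fold) were as steep. At the other end, Lbr was 2.38-, 2.17- and 2.34-fold higher, with 81.9 to 102 CPM in cells with 0, Anp32e 3.1-, 2.62- and 3.08-fold and Cbx5 3.94-, 3.11- and 3.69-fold. Lbr and Anp32e, the most evenly expressed genes of the set, also had the smallest ratios in pDC-marked cells at 50 µM. Hmgb2 lay between, at 11.2-, 8.09- and 11.1-fold, as did Cdk1 at 30.3-, 21.7- and 26.6-fold and Top2a at 52-, 35.7- and 48.3-fold.

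**Figure D4:**
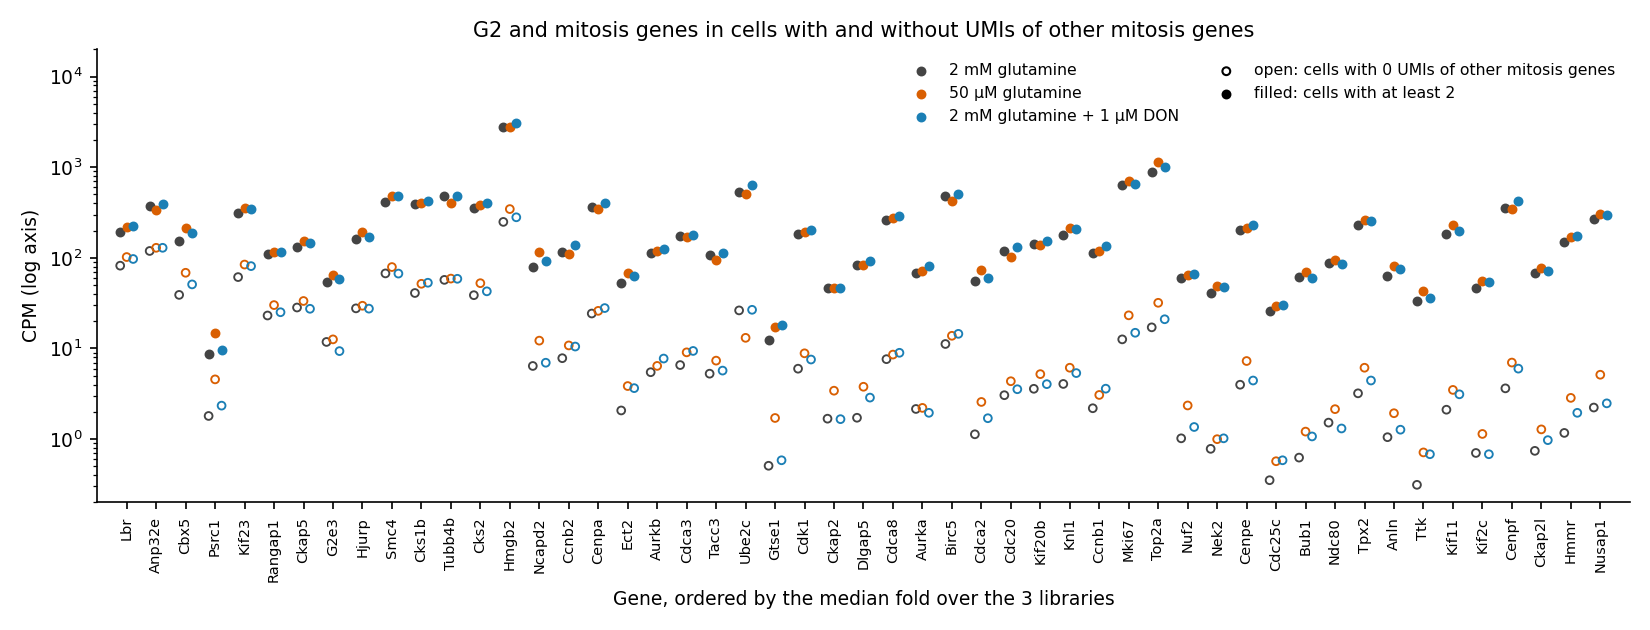
CPM on a log axis of each of the 51 genes in cells with at least 2 UMIs of other mitosis genes (filled) and in cells with 0 (open), over all lineages, coloured by library and ordered by the median fold. The gap grows from about 2-fold in Lbr (2.17 to 2.38) at the left to 59.4- to 120-fold in Nusap1 at the right.

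The members also differed in how they went with S phase UMIs, although no cell was given a position in the cycle. Cells with other mitosis UMIs were split by their UMIs of 43 S phase genes after thinning, into 781, 1544 and 961 cells with at least 5 and 301, 210 and 275 cells with at most 1. The mean number of UMIs of the set was alike in both, 21.9 and 21.1 in control, 24.3 and 23.9 at 50 µM and 24.3 and 25.6 with DON. Its make-up was not. Cdc20 was 3.32-, 2.79- and 3.67-fold higher in the cells low in S phase UMIs, Ccnb2 2.81-, 2.43- and 3.29-fold, Cenpa 2.23-, 2.03- and 2.46-fold and Ube2c 2.35-, 1.81- and 2.53-fold. Ccnb1 (2.68, 2.05 and 1.74), Cenpf (2, 1.92 and 2.48) and Hmmr (2.13, 1.82 and 1.68) went the same way. Top2a was lower in them, at 0.346-, 0.46- and 0.532-fold, as were Cbx5 (0.329, 0.489 and 0.396), Ttk, a checkpoint kinase (0.519, 0.417 and 0.414), and Mki67 (0.579, 0.637 and 0.723). Hmgb2 was even, at 1, 0.99 and 0.99. These values pool the lineages, whose shares differ between libraries.

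**Figure D5:**
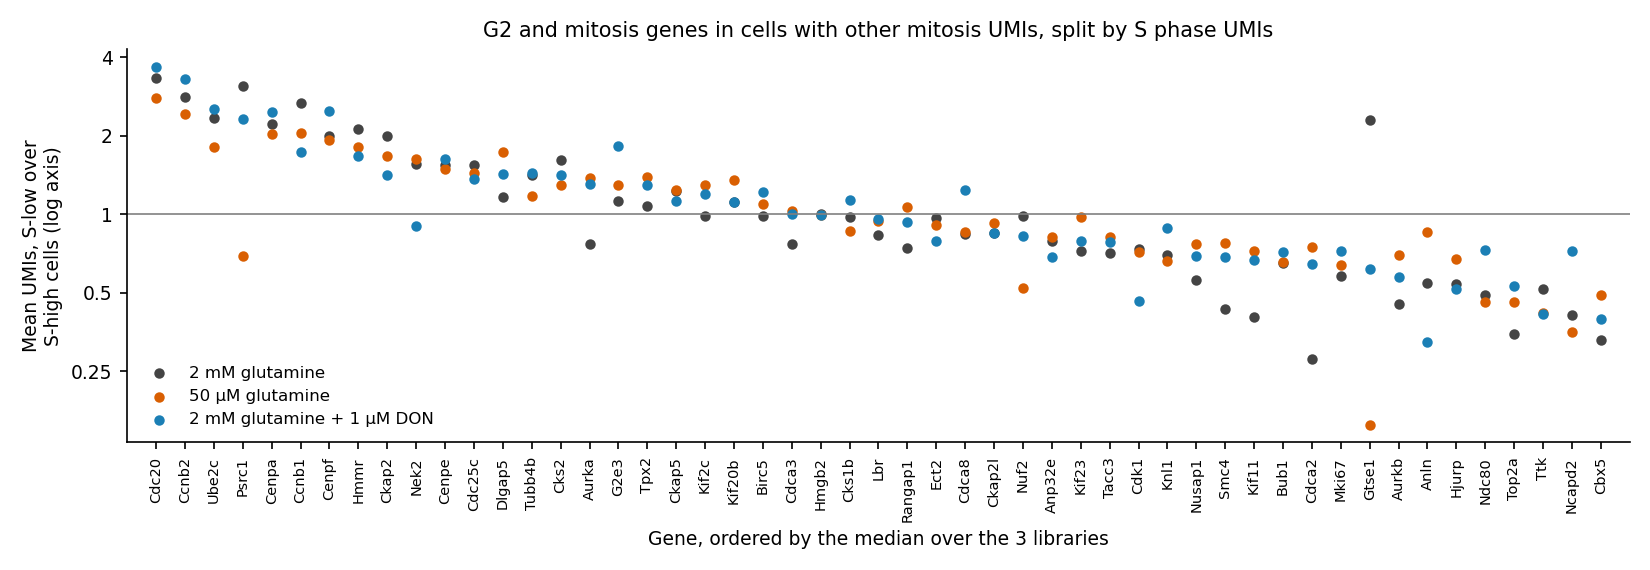
Ratio, on a log axis, of each gene's mean UMIs in cells with at most 1 S phase UMI over that in cells with at least 5, among cells with other mitosis UMIs and after thinning, coloured by library. Cdc20 stands highest at 2.79 to 3.67 and Cbx5 near the bottom at 0.329 to 0.489, and Gtse1 and Psrc1, at few UMIs, scatter between libraries.

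Lists of related genes were read the same way. The 49 other mitosis genes summed to 983, 2811 and 1799 CPM in pDC-marked cells, with 48 at least 1.5 times higher and 0 lower at 50 µM, beside 10.2% and 4.32% of all genes, and 36 and 0 with DON, beside 1.93% and 0.731%. Kif15, a spindle kinesin (32.2 to 125 CPM, 1.81), was highest at 50 µM. Pttg1, securin, was the gene under control in both treatments, at 27.3, 19.7 and 22.8 CPM. Between lineages Pttg1 was called higher in cDC1 than in pDC (0.72 ± 0.12, edgeR adjusted p = 0.000135). Its cDC1 levels were 40.6, 17.7 and 36.4 CPM, so at 50 µM, with 22 UMIs in cDC1, the order was the other way. Of the 49, 17 were higher and 0 lower in progenitors than in pDC, beside the 29.3% and 31.2% of all genes given above.

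The 43 S phase genes summed to 1491, 3326 and 2214 CPM in pDC-marked cells, with 40 of 43 at least 1.5 times higher at 50 µM, beside 10.2% of all genes, 16 of 42 with DON, beside 1.93%, and 0 lower. Rrm1, a subunit of ribonucleotide reductase (46 to 148 CPM, 1.58), and Mcm5, of the replicative helicase (38.8 to 118 CPM, 1.49), led at 50 µM. In cDC1-marked cells at 50 µM the S phase list was above control, 1695 to 2301 CPM (log2 0.44), while the 51 genes were at -0.14 and the other mitosis genes at -0.01. Mcm6 was at 61.7 and 119 CPM there (0.90). In progenitors 42 of the 43 were higher than in pDC and 0 lower, beside 29.3% and 31.2% of all genes, with a median log2 difference of 0.92. The largest was Polr1b, a subunit of RNA polymerase I (2.58 ± 0.19, adjusted p = 1.71e-08), which is no replication gene.

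The 13 genes that brake the cycle moved in both directions. In pDC-marked cells they summed to 1094, 888 and 1003 CPM. Of 12 measured, 5 were at least 1.5 times higher and 1 lower at 50 µM, beside 10.2% and 4.32% of all genes, and 1 and 1 with DON, beside 1.93% and 0.731%. Btg2, an antiproliferative gene, was at 322, 132 and 208 CPM (log2 -1.26 and -0.62), and Wee1, the kinase that holds CDK1 inactive, at 9.76, 25.2 and 14.5 CPM (1.03 and 0.40). In cDC1-marked cells Cdkn1a, which encodes the CDK inhibitor p21, was at 44.1, 107 and 31 CPM (1.19 and -0.45). At 50 µM it was above control in the other lineages too, most in progenitors, at 25.1 and 103 CPM (1.84). Its ratios there were 0.86 in pDC, 0.62 in cDC2 and 0.20 in unmarked cells. From pDC to progenitors 4 rose and 7 fell of 12 tested, beside 29.3% and 31.2% of all genes, with Btg2 at -3.38 ± 0.25 (adjusted p = 2.08e-08), Btg1 at -2.77 ± 0.21 and Cdkn2d, an inhibitor of CDK4 and CDK6, at -2.17 ± 0.12. Wee1 was higher in progenitors by 1.04 ± 0.18 (adjusted p = 0.000139).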

How the data were processed

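The UMI counts per gene and cell are raw and were deposited as filtered 10x matrices, made by the authors with Cell Ranger against mm10; its version is 6.0.0 per the file headers and 3.1.0 per the submitters' processing notes. Libraries held 10497, 9817 and 8962 barcodes and 89340379, 92002827 and 87611658 UMIs (control, 50 µM, DON). Cells under 1000 UMIs, under 500 genes or over 10% mitochondrial counts were dropped, and doublets were removed with Scrublet in scanpy 1.11.5 (expected rate 0.08). Cells were gated on marker UMIs and thinned to 2000 UMIs for shares. Raw counts were summed per lineage and library, and lineages were tested with edgeR 4.0.16 (quasi-likelihood, TMM, filtered, Benjamini-Hochberg over all genes tested, two-sided), with DESeq2 1.42.0 as an alternative. The script was tested on simulated data. Treatments, with 1 library each, were compared as CPM without a test. Genes with printed values were a fixed set of well-known members, those with the 3 largest differences each way per lineage contrast and the 3 highest and lowest ratios per lineage and treatment at 20 CPM or more. Singled out after their values were seen were genes in the split by mitosis and S phase UMIs, some role examples, low-level genes completing a small count, and the limits of 5 and 1 S phase UMIs. The members and lists were chosen with earlier results of these data known.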

Additional observations from a re-analysis of the deposited data

Results flagged for a closer look

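In cDC1-marked cells the summed genes stood at a log2 ratio of -0.14 at 50 µM glutamine, while they were above control in the 4 other classes. Within these cells Ube2c stood at -1.08 and Tubb4b at -0.62, against ratios above 0 in pDC-marked cells. With DON, Ttk stood at -0.74 and Cdca2 at -0.59 in unmarked cells, and both were above control in pDC-marked cells. They were the only 2 of 50 measured genes at least 1.5 times lower in unmarked cells with DON. That is a smaller share than the 7.34% of all genes lower there, so it does not set the 51 genes apart. The class had 127 cells with DON, and neither gene counted as lower under the higher minimum level in CPM or with gating after thinning. In each of these comparisons the lineages stood on opposite sides of control with 1 library a group, and the differences between lineages were not tested.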

How the results depend on the processing

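No paired analysis was possible because each treatment had 1 library; this concerns the treatments, while the lineage fit pairs lineages within libraries through its library term. Where a value moved, the cause was not tested. Shares of all genes called are not given for the alternative lineage fits, so their counts have no background beside them. Genes higher between lineages, leaving out 1 library at a time, numbered 0 to 39 (cDC1 over pDC), 0 to 33 (cDC2 over pDC), 6 to 43 (progenitor over pDC), 0 to 2 (unmarked over pDC) and 0 to 6 (cDC1 over cDC2). Genes lower numbered 1 to 4, 0 to 4, 0 to 2, 0 to 7 and 0 to 2. From cDC1 over pDC, higher genes were 0 by DESeq2, 7 without a filter, 0 without a library term, 0 with gating after thinning to 3000 UMIs and 2 with doublets kept, and lower genes 5 without a filter. From cDC2 over pDC, higher genes were 5 without a filter and 0 without a library term, and lower genes 4 without a filter and 1 with a gate of 6 UMIs. From progenitor over pDC, higher genes were 13 without a library term, and lower genes 0 by DESeq2, 2 without a filter, 0 without a library term and 0 with gating after thinning. From unmarked over pDC, higher genes were 34 and lower genes 0 with gating after thinning, and lower genes 14 without a filter. Cenpf (0.31), Ube2c (0.31) and G2e3 (0.22) turned direction there. From cDC1 over cDC2, 3 were higher and 4 lower without a filter.

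For the summed log2 ratio at 50 µM and with DON, pDC gave 1.36 and 0.80 with the 6-UMI gate, 1.30 and 0.75 with gating after thinning, 1.29 and 0.74 with doublets kept, 1.35 and 0.80 without the 5 highest genes, 1.31 and 0.80 with scaling by the median of ratios, 1.35 and 0.90 without progenitor UMIs and 1.56 and 1.12 with Ccr9. For cDC1 the 6-UMI gate gave -0.28 and 0.49, gating after thinning -0.30 and 0.53, and scaling -0.18 and 0.36. For cDC2 gating after thinning gave 0.34 and 0.29, scaling 0.18 and 0.19, leaving out the 5 highest genes 0.25 and 0.24, doublets kept 0.26 at 50 µM and the 6-UMI gate 0.24 with DON. For progenitors the 6-UMI gate gave -0.05 and 0.16 and scaling 0.05 and 0.29, and at 50 µM gating after thinning gave 0.16 and leaving out the 5 highest genes 0.01. For unmarked cells the 6-UMI gate gave 0.61 and 0.18, gating after thinning 0.25 and 0.17, and leaving out the 5 highest genes 0.81 at 50 µM.

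Counts past 1.5-fold also moved. In cDC1, lower genes at 50 µM were 9 with the 6-UMI gate and 11 with gating after thinning, and higher genes with DON were 13 with gating after thinning, 2 with scaling and 10 with a pseudocount of 1 CPM. In cDC2 at 50 µM, higher genes were 6, 7, 1 and 7 with the 6-UMI gate, gating after thinning, scaling and the pseudocount. In progenitors, they were 3 with gating after thinning, 2 with the pseudocount and 0 with a minimum of 20 CPM at 50 µM, and 0 and 11 with the 2 gates and DON. In unmarked cells, higher genes were 4 with gating after thinning at 50 µM, and 1 and 0 with the 2 gates and DON. Lower genes with DON were 1 and 0 with these gates and 0 with the 20 CPM minimum.

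With a limit of 6 UMIs the shares in control, 50 µM and DON were 14, 45.2 and 25.3% in pDC and 25.7, 34 and 31.1% in cDC2, 73.7, 78 and 83.3% in progenitors, 27.5 and 40.5% in cDC1 (control, DON) and 31 and 54.5% in unmarked cells (control, 50 µM). With a limit of 20 they were 7.72, 30 and 15.8% in pDC, 17.5, 14.3 and 23.7% in cDC1, 15, 20.8 and 18.4% in cDC2, 25.4, 32 and 38.2% in progenitors and 12.7, 32.6 and 18.7% in unmarked cells. Gating after thinning gave 39.1, 58.5 and 48.8% in unmarked cells. With doublets kept, control pDC had 12%. Without progenitor UMIs, pDC had 9.27% in control and 32.5% at 50 µM, and with Ccr9 4.45, 16.7 and 10.5%.

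Splitting at 1 UMI of other mitosis genes in place of 2, the folds were 8.07, 9.44 and 10.4 in pDC, 8.81, 6.57 and 8.5 in cDC1, 8.88, 8.39 and 8.27 in cDC2, 2.36 and 3.23 in progenitors (control, 50 µM) and 4.03, 5.89 and 4.18 in unmarked cells. At 4 UMIs they were 19.1, 12.8 and 18 in pDC, 14.6, 10.9 and 12.2 in cDC1, 15.9, 12.8 and 14.2 in cDC2, 2.97, 3.93 and 4.24 in progenitors and 7.31, 7.66 and 7 in unmarked cells. The subsets by Ccr9 and progenitor UMIs were chosen after seeing the data. Depth limits the cDC1 values at 50 µM (134 cells) and all progenitor and unmarked values.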
